A study of Homo sapiens with 2 samples.

Results

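Deubiquitinases are the proteases that cut ubiquitin from proteins or trim ubiquitin chains. This account describes how strongly their genes were transcribed in BJ cells, an established line of human skin fibroblasts. The genes were chosen by symbol, as those whose current symbol begins with USP and a digit, OTU, UCHL, ATXN3, JOSD, MINDY, BAP1, CYLD, STAMBP, BRCC3 or ZRANB1, with the Y chromosome left out. The rule finds 143 symbols, of which 106 are protein-coding in RefSeq, and 67 of these had a value among the 12353 genes of the deposited table. The assay was GRO-seq (global run-on sequencing), in which engaged RNA polymerases extend their transcripts in isolated nuclei with a brominated nucleotide, so a level reports transcription and not the amount of mRNA or protein. The cells were untreated and grew in medium with 10% heat-inactivated fetal calf serum, and 2 libraries from biological replicates form the only group. Levels are FPKM, fragments per kilobase of gene scaled to library size, given as library a and library b or as mean ± SD (n = 2).

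Ubiquitin is joined to proteins by E1, E2 and E3 enzymes, and the shape of the chain decides whether the target is degraded by the proteasome, moved within the cell or used as a signalling scaffold. Deubiquitinases reverse this and recover free ubiquitin. The USP, OTU, UCH, Josephin and MINDY families are cysteine proteases, whereas the JAMM family are zinc metalloproteases. Many work inside larger assemblies, among them the SAGA coactivator, the proteasome and the BRCA1-A complex, which direct them to their targets.

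The design has a single group, so conditions could not be compared and no p-value is given. Levels of different genes are compared per length, and the sources used here do not state the gene length or read total that the authors used. Read depth is unknown. Across the 67 genes the libraries had a Spearman rho of 0.988, and of 0.986 across all genes, which are not independent replicates. All 12 fibroblast markers examined had a value, led by COL1A1 (649 ± 48.1), VIM (539 ± 9.28) and COL1A2 (353 ± 7.53). Not all were high: DCN (7.34 ± 0.495) and PDGFRA (8.72 ± 0.686) lay below the median of all genes, 11.7, and COL6A1 (11.7 ± 1.77) lay close to it. Of markers of other cell types, 1 of 7 leukocyte genes had a value (CD68, 114 ± 2.44), 2 of 7 epithelial genes (CLDN4, 2.99 ± 0.00707, and CDH1, 1.49 ± 0.0141) and 1 of 6 endothelial genes (CLDN5, 7.88 ± 0.141), whereas PTPRC, EPCAM, PECAM1 and CDH5 had none.

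The deubiquitinase genes were transcribed at about the level of the typical gene. Their median was 10.5 FPKM (10.2 in library a, 10.5 in library b), against 11.7 for all genes, a ratio of 0.899. Of the 67 genes, 30 (44.8%) lay above the median of all genes. The highest, UCHL1, was 35.3 times the lowest, USP6NL, which does not encode a protease. The upper quartile of the members was 2.83 times the lower, against 3.52 times for all genes. Few reached high levels: 10 genes (14.9%) were in the highest 25% of all genes, which began at 22.2 FPKM, whereas 17 were in the lowest 25%, with 20 in each of the classes between.

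**Figure D1:**
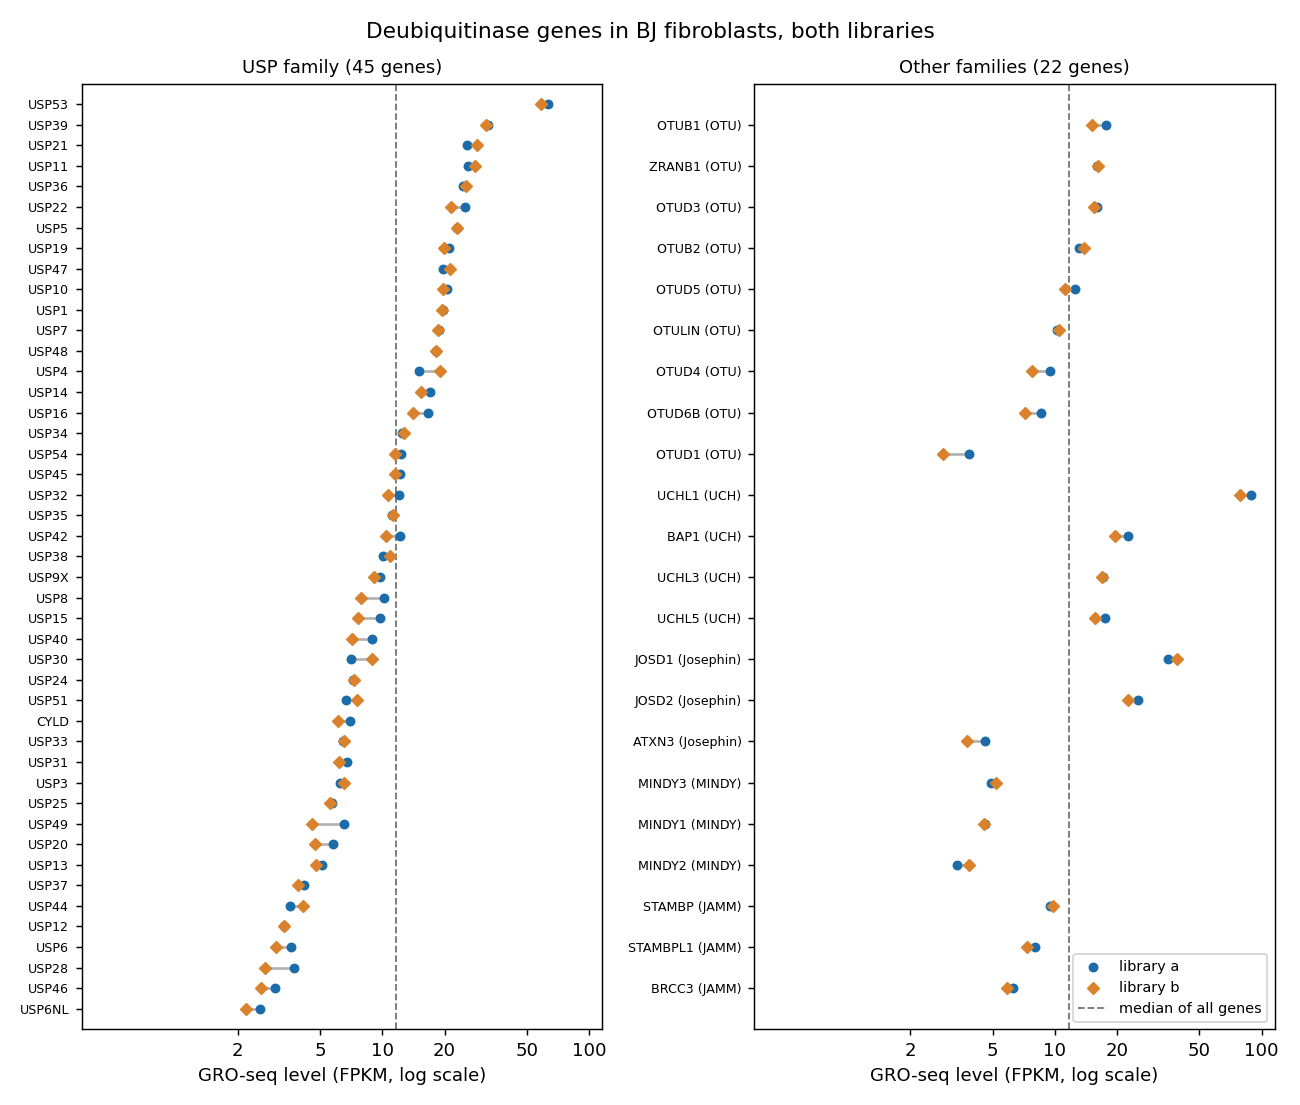
Levels of the 67 deubiquitinase genes in library a (circles) and library b (diamonds), in FPKM on a log axis, with the 45 USP family genes on the left and the 22 genes of the other families on the right. The dashed line is the median of all genes, 11.7 FPKM. UCHL1 and USP53 stand to the right of the rest in both libraries, and all MINDY and JAMM genes lie left of the line.

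UCHL1 and USP53 stood apart at the top. UCHL1, a small hydrolase best known as an abundant protein of neurons, was at 88.8 and 78.4 FPKM in libraries a and b, 7.14 times the median gene. USP53, a USP family member of cell junctions long annotated as inactive, was at 63.1 and 58.5. The ranges of these 2 genes over the libraries did not overlap each other or that of any other member. JOSD1, a Josephin enzyme linked to the plasma membrane, followed at 35.2 and 39.2 in libraries a and b. USP39, a splicing factor whose protease fold lacks catalytic residues, was at 32.5 and 31.8. After these 4 the order was close: USP21, USP11, USP36, JOSD2, USP22 and USP5, the rest of the 10 highest, lay between 23.03 and 27.2 FPKM on average.

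Since UCHL1 is known from neurons, neuronal genes are given beside it. Of 14 neuronal markers 6 had a value, and they summed to 42.7 and 43.1 FPKM in libraries a and b. SYP was highest among them (19.3 ± 1.93), followed by SYN1 (8.29 ± 1.04), while TUBB3, NEFL, NEFM, SNAP25, STMN2, DCX, GAP43 and ELAVL4 had no value. UCHL1 was at 88.8 and 78.4 FPKM in the same libraries. Levels of these markers set no limit on that of UCHL1, and any relation between them was not tested.

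The promoters of the 3 highest genes and of USP46, the lowest member that encodes a deubiquitinase, are shown to set the ends of the range side by side. Each line holds the 250 bases before the start annotated in RefSeq on GRCh38.p14, 5′ to 3′ on the strand of the gene. The levels were made on hg19, and the table does not show which start was used in these cells. Capitals mark any of 5 motifs searched on both strands: the TATA box TATAAA, the CCAAT box CCAAT, the GC box GGGCGG, the ETS motif CCGGAAG and the E box CACGTG. Motifs were counted separately, so overlapping matches would each count.
UCHL1 (chr4:41256678-41256927, plus strand): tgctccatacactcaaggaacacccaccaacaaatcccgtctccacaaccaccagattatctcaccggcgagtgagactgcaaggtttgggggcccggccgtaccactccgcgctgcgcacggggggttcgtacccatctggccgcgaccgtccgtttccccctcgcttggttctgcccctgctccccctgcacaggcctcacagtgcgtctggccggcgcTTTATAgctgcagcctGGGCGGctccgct
USP53 (chr4:119212463-119212712, plus strand): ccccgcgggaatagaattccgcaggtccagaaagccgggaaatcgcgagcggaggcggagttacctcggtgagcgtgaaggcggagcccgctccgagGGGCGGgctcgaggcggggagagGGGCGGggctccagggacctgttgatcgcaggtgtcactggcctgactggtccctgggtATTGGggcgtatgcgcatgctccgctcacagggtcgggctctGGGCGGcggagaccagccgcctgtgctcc
JOSD1 (chr22:38701404-38701653, minus strand): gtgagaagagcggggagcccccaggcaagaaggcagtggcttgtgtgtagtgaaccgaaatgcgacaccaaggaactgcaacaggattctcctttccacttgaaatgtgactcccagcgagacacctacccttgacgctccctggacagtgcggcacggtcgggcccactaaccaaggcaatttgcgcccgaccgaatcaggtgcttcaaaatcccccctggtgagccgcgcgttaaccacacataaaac
USP46 (chr4:52659302-52659551, minus strand): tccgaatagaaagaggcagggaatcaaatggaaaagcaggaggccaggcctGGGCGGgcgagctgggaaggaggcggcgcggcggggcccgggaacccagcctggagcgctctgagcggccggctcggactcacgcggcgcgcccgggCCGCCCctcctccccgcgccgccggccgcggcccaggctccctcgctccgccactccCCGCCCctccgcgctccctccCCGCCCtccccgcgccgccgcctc

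The 2 highest genes differed in these letters. The UCHL1 window held a TATA box, on the opposite strand, and 1 GC box, whereas USP53 had 3 GC boxes, 1 CCAAT box and no TATA box. JOSD1 had none of the motifs and 14 CpG dinucleotides, while USP46, at the other end of the levels, had 4 GC boxes and 34 CpG dinucleotides. Promoter windows were matched for 55 of the 67 genes. Deubiquitinase windows were rich in GC, with a median of 70.0% and 26 CpG dinucleotides, against 64.8% and 21 over the 9936 windows of genes with a value and 58.0% and 11 over all 27305 windows.

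The GC box, bound by Sp1-type factors, was present in 80.0% of deubiquitinase windows, against 67.0% of windows of genes with a value and 42.3% of all windows. The ETS motif stood in 23.6%, against 16.1% and 8.82%. TATA boxes were rare, in 5.45% of deubiquitinase windows (UCHL1, USP16 and USP40), against 5.36% and 11.1%. CCAAT boxes were found in 30.9%, against 35.3% and 33.04%, and E boxes in 12.7%, against 8.82% and 6.49%. Only JOSD1, UCHL3 and USP7 had none of the 5 motifs among the 55. A match is a match of letters and does not show that a factor binds there.

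The families differed in level, although most are small. The 45 USP genes had a median of 10.5 FPKM with 19 above the median of all genes, and the 9 OTU genes a median of 11.8 with 5 above it. All 4 UCH genes lay above it, with a median of 19.1, and of the 3 Josephin genes JOSD1 and JOSD2 did, with a family median of 24.0. None of the 3 MINDY genes (median 4.57) or the 3 JAMM genes (7.66) did. The rule matches only part of the JAMM fold, and the 9 listed JAMM-fold genes outside the rule, given below, all lay above the median of all genes. For the OTU family the side depends on the library, with a median of 12.5 and 11.2 in libraries a and b, against all-gene medians of 11.8 and 11.7. Families of 3 or 4 genes allow no statement about the family beyond these members.

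Within the UCH family, BAP1, the histone H2A deubiquitinase and tumour suppressor, was at 22.5 and 19.6 FPKM in libraries a and b. UCHL3, which also acts on the ubiquitin-like protein NEDD8, was at 17.2 and 17.0, and the proteasome-bound UCHL5 at 17.5 and 15.7. These 3 lay close together, and UCHL1 was 4.87-fold above UCHL3. Of the Josephin genes, JOSD2 stood at 25.3 and 22.7, below JOSD1 in both libraries. ATXN3, the Machado-Joseph disease gene, was far lower at 4.62 and 3.76. In the MINDY family MINDY3 had 4.94 and 5.20, MINDY1 4.58 and 4.55, and MINDY2 3.37 and 3.83.

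The 9 OTU genes spanned a 4.88-fold range from lowest to highest, against 25.7-fold for the 45 USP genes. The USP range ends at USP6NL, which matches by symbol but does not encode a protease. Such a range tends to grow with the number of genes, so these ranges are not directly comparable. OTUB1, which blocks E2 enzymes as well as cutting chains, was highest on average, at 17.7 and 15.1 FPKM in libraries a and b. ZRANB1, also called TRABID and linked to WNT signalling, had 16.0 and 16.2, and OTUD3 had 16.0 and 15.4, both above OTUB1 in library b. OTUB2, the paralogue of OTUB1, had 13.1 and 13.9. Below it OTUD5 (11.8 ± 0.884), OTULIN (10.3 ± 0.184), OTUD4 (8.60 ± 1.18) and OTUD6B (7.86 ± 1.00) formed a gradual series. OTUD1, a single-exon gene, was lowest at 3.84 and 2.87, below every other OTU gene in both libraries.

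The role groups below were written for this account, and some genes are in more than one of them. Chromatin deubiquitinases, which act mainly on histones H2A and H2B, had a median of 15.3 FPKM, with 5 of 9 measured genes above the median of all genes. USP21 led them at 25.7 and 28.8 in libraries a and b. USP22, the catalytic subunit of the SAGA deubiquitinase module, was at 25.2 and 21.6. Its relative USP51 was 3.25-fold lower (6.68 and 7.56), and USP27X, the other gene of that group, had no value. USP16 was at 16.7 and 14.0 in libraries a and b, and its relative USP45 at 12.2 and 11.5. Lower still were USP3 at 6.40 ± 0.226, USP49 at 5.56 ± 1.41 and USP44 at 3.86 ± 0.417. Among the SAGA adaptors, ATXN7L3, which the module needs for activity, was at 61.9 ± 6.38 and ENY2 at 35.9 ± 1.34, both above USP22. Of 6 module partners 5 lay above the median of all genes, and ATXN7L1 was lowest at 5.39 ± 0.453. BAP1 partners had a median of 14.6 over 9 of 10 measured genes, led by MBD6 (32.5 ± 0.148) and ASXL1 (17.9 ± 0.870) and lowest for MBD5 (2.70 ± 0.559).

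Genes of the DNA damage response were mostly moderate, with a median of 16.4 FPKM and 5 of 9 above the median of all genes. USP1, which removes ubiquitin from PCNA and FANCD2, was at 19.8 and 19.4, and USP48 at 18.3 and 18.1. USP47, a regulator of base excision repair, had 19.6 and 21.2. USP28, known as a deubiquitinase of MYC, was among the lowest at 3.76 and 2.72, and USP24 was at 7.18 and 7.31. BRCC3, the JAMM enzyme of the BRCA1-A and BRISC complexes, was at 6.29 and 5.86. All 8 of its listed partners exceeded it, from ABRAXAS1 (8.22 ± 0.728) and BABAM2 (8.67 ± 1.05) to BABAM1 (37.4 ± 0.120) and the metabolic enzyme SHMT2 (69.2 ± 4.62). BRCC3 was at percentile 23.9 of all genes, so most genes of the table exceeded it as well. Of the 8 partners, 5 lay above the median of all genes. The activator of USP1, WDR48, was at 11.9 ± 1.79, and it also serves USP12 (3.34 and 3.35) and USP46 (3.03 and 2.59), both near the bottom of the range.

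Regulators of MDM2 and the cell cycle had a median of 6.75 FPKM, with 2 of 6 measured genes above the median of all genes. USP10 was at 20.6 and 19.6 FPKM, and USP7, which stabilises MDM2, at 18.8 and 18.5. USP9X stood at 9.71 and 9.15, USP37 at 4.06 ± 0.198, while USP2 had no value. MDM2 itself was at 28.1 ± 0.806 and the USP10 partner G3BP2 at 37.1 ± 0.834. A close relative of USP9X was left out by the rule, and the sources used here do not say how reads mapping to several places were treated.

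Genes that regulate innate and NF-kB signalling had a median of 8.66 FPKM, with 3 of 9 measured genes above the median of all genes. USP4 was at 15.0 and 19.0 in libraries a and b, and OTUD5 at 12.5 and 11.2. OTULIN, which cuts linear ubiquitin chains, was 1.57-fold above CYLD, which cuts linear and other non-degradative chains (10.2 and 10.5 against 7.01 and 6.13). USP15 was at 9.70 and 7.62, USP25 at 5.74 and 5.58, and USP31 at 6.45 ± 0.417. The interferon-induced USP18 and both OTUD7A and OTUD7B had no value. The linear chain ligase genes SHARPIN (49.7 ± 1.21), RBCK1 (26.0 ± 0.608) and RNF31 (23.9 ± 2.35) all stood above OTULIN and CYLD, whereas the CYLD adaptor SPATA2 (6.19 ± 0.622) did not. OTULIN was at percentile 44.2 and CYLD at percentile 26.5 of all genes, so most genes of the table exceeded them as well.

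The 2 cysteine proteases that recycle ubiquitin at the proteasome were close in level. USP14 was at 16.9 and 15.4 FPKM in libraries a and b, close to UCHL5, the other reversibly bound proteasome enzyme, with a log2 ratio of -0.03 ± 0.0155. PSMD14, the built-in JAMM enzyme of the proteasome, was at 31.5 ± 0.757, and the UCHL5 receptor gene ADRM1 at 36.1 ± 1.38. USP5, which takes apart unanchored chains, had 23.1 and 23.0, 4.60-fold above its paralogue USP13 (5.11 and 4.76). The ubiquitin precursor gene UBB (101 ± 2.64) exceeded every deubiquitinase gene, and RPS27A (64.9 ± 0.721) exceeded all but UCHL1.

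Genes of the endosome and of membrane receptors were low, with a median of 6.53 FPKM and none of 9 above the median of all genes by mean level. In library a alone, USP32 (12.04) was above the all-gene median of that library (11.76). USP32 (12.0 and 10.6) and STAMBP (9.44 and 9.84), the JAMM enzyme of early endosomes, were highest on average. USP8, which acts with STAM at sorting endosomes, was at 10.2 and 7.86, above STAMBP in library a, STAMBPL1 at 8.01 and 7.31, USP33 at 6.49 and 6.56, and USP20 at 5.76 and 4.72. Of the sorting complex that recruits USP8 and STAMBP, HGS was at 52.99 ± 2.79 and STAM at 40.0 ± 0.962, above both enzymes, whereas STAM2 was at 5.69 ± 0.467. USP8 was at percentile 38.7 and STAMBP at percentile 41.3 of all genes, so most genes of the table exceeded these enzymes as well. USP30, the mitochondrial enzyme that opposes mitophagy, had 7.08 and 8.91 in libraries a and b.

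Members linked to WNT, TGF-beta and Hippo signalling had a median of 16.1 FPKM, with 5 of 7 above the median of all genes. USP11 was at 25.9 and 27.9, and USP34 at 12.6 ± 0.156. All 5 genes listed for the ribosome and nucleolus lay above it too, with a median of 20.1, led after USP21 by the nucleolar USP36 (24.4 and 25.4). Genes in no role list were spread: USP19, an enzyme of the endoplasmic reticulum, was at 20.4 ± 0.651, USP42 at 12.1 and 10.4, USP38 at 10.1 and 10.9, and USP40 at 8.87 and 7.15. USP35, listed with the mitochondrial genes, was close to USP38 at 11.2 and 11.3. Of the genes that match by symbol but are not, or were long not, counted as active enzymes, USP54 was at 12.4 and 11.5. USP6NL, at 2.55 and 2.18 the lowest member, encodes a GTPase-activating protein for RAB proteins and not a protease.

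Some members had no value. Setting aside the USP17L copies, a family of 25 near-identical genes without any value, 67 of 81 protein-coding genes of the rule (82.7%) had a value. With the copies counted it was 67 of 106 (63.2%), against 59.8% of all RefSeq protein-coding genes. The 14 without were USP2, USP18, USP26, USP27X, USP29, USP43, USP50, OTUD6A, OTUD7A, OTUD7B, OTULINL, ATXN3L, MINDY4 and MINDY4B. Of 12 genes listed as restricted to particular tissues, 3 had a value, namely UCHL1, USP44 and USP6 (3.61 and 3.07). The table holds no 0 and no value under 0.27 FPKM, so these genes are described only as having no value.

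Related genes were compared within each library as log2 ratios of FPKM + 0.1. Of 30 pairs fixed for this purpose 23 had both values, of which 12 lay over 1.5-fold apart, 8 of them over 2-fold. The count over 1.5-fold was 10 in library a alone, and 11 over both libraries with a pseudocount of 1. In all 23 the sign was the same in both libraries, and in 18 the mean ratio exceeded 2 SD over the libraries. A small difference can pass this mark, as USP14 and UCHL5 did at 1.02-fold apart. Such counts were not made for pairs of other genes, so they are not read as particular to these pairs. The widest gap was between USP53 and USP54, at 2.34 and 2.33 in libraries a and b, a 5.05-fold difference. Next were UCHL1 over UCHL3 (2.28 ± 0.115) and USP5 over USP13 (2.20 ± 0.0683). USP11 stood 3.10-fold above USP15, USP36 2.21-fold above USP42, and USP48 2.27-fold above USP40.

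The other 11 pairs lay within 1.5-fold, with USP14 and UCHL5 closest (log2 ratio -0.03 ± 0.0155). USP7 and USP47 (log2 ratio -0.13 ± 0.102), USP38 and USP35 (-0.10 ± 0.0671), OTUB1 and OTUB2 (0.28 ± 0.222), USP12 and USP46 (0.25 ± 0.158) and USP33 and USP20 (0.32 ± 0.210) differed by less than 2 SD over the libraries. USP4 over USP15 varied most, at 0.63 and 1.31 in libraries a and b, since the genes differed between libraries in opposite directions. USP32 stood 3.32-fold above USP6, but USP6 arose in primates partly from USP32 and shares sequence with it, so this ratio is uncertain.

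**Figure D2:**
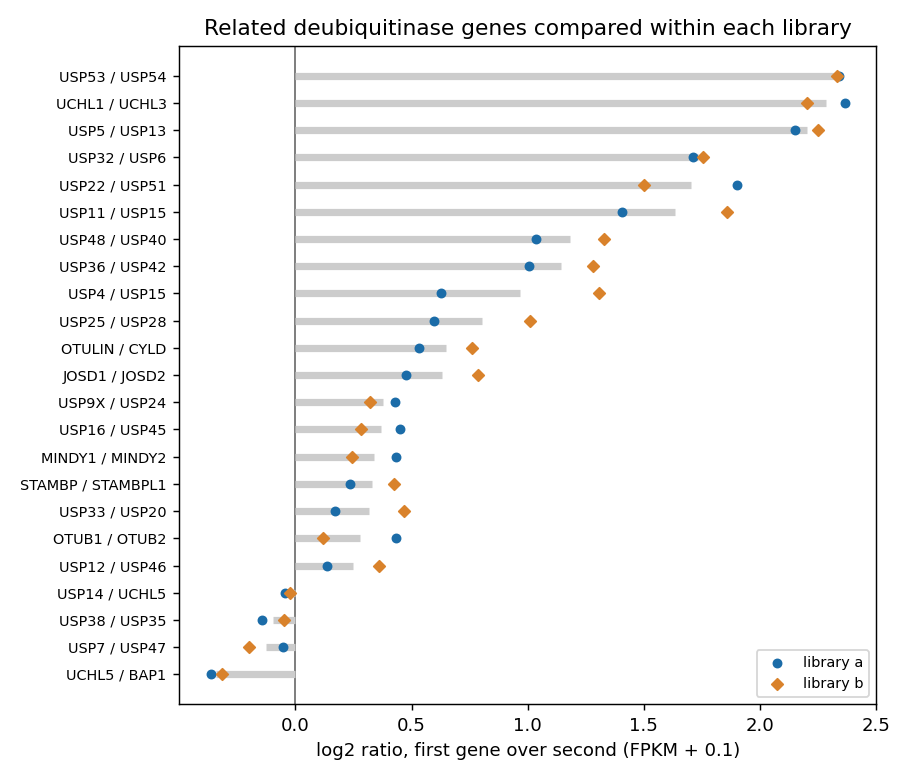
Log2 ratios of FPKM + 0.1 for 23 pairs of deubiquitinase genes, the gene named first over the other, in library a (circles) and library b (diamonds), with grey bars for the mean. USP53 over USP54 is at the top (2.34) and UCHL5 over BAP1 at the bottom (-0.34), and both libraries lie on the same side of 0 for every pair.

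No deubiquitinase gene differed by more than 1.5-fold between the libraries (0 of 67), against 2.16% of all genes. The largest difference was in USP49, at 6.55 and 4.56 in libraries a and b (1.44-fold), followed by USP28 (1.38-fold) and OTUD1 (1.34-fold). A total of 11 members differed by more than 1.2-fold (16.4%), against 22.0% of all genes. The median member differed by a factor of 1.10, as did the median gene. Library a held the higher value for 45 of the 67 (67.2%), against 53.3% of all genes. With 2 libraries, an imbalance of this kind is a property of these libraries and was not tested.

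**Figure D3:**
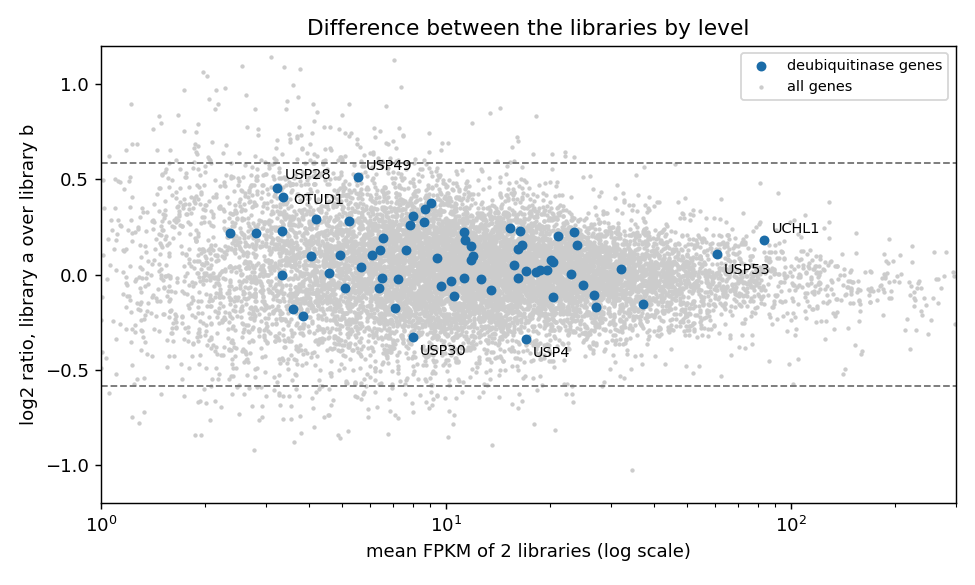
Log2 ratio of library a over library b against mean FPKM (log axis) for the 67 deubiquitinase genes (blue) and all genes (grey); a few genes beyond the drawn range are not shown. Dashed lines mark a 1.5-fold difference. All blue points lie between the lines, with USP49 nearest to the upper and USP4 and USP30 nearest to the lower.

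Some levels may include reads of other genes, because the sources used here do not say whether strand was used in counting. Annotated spans of 12 members overlapped that of another gene with a value. Divergent starts within 1 kb could be searched only between genes with a promoter window, which 55 of the 67 members had. Of these 55, 8 shared such a start with a gene with a value. The share of all genes with such neighbours was not computed, so these counts are not read as particular to the members. USP34 (12.5 and 12.7 in libraries a and b) overlaps AHSA2P (56.7 ± 0.665), and USP32 overlaps CHCT1 (53.7 ± 0.0424). USP6 overlaps ZNF232 (25.7 ± 1.32) and ZNF594 (15.3 ± 0.686), each above USP6 itself. Among the highest members, USP39 overlaps C2orf68 (30.2 ± 0.488) and starts opposite TMEM150A (30.9 ± 1.54), both at nearly its own level. Their part in the members' values was not tested. For UCHL1, USP53 and JOSD1, each with a promoter window, neither kind of partner was found among the genes that could be searched.

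Set beside related enzyme classes, the deubiquitinase genes had the lowest median over both libraries. Their median of 10.5 FPKM compares with 17.03 for 30 E2 enzyme genes, of which 23 lay above the median of all genes, and with 30.8 for 36 proteasome subunit genes, of which 33 did. The proteasome median was 2.93 times that of the deubiquitinases and the E2 median 1.62 times. The 9 SUMO protease genes, which act on the related modifier SUMO, had a median of 11.5 with 4 above that of all genes, and in library b alone their median (10.3) was below that of the deubiquitinases (10.5). These classes were picked by symbol or list and are described, not tested.

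**Figure D4:**
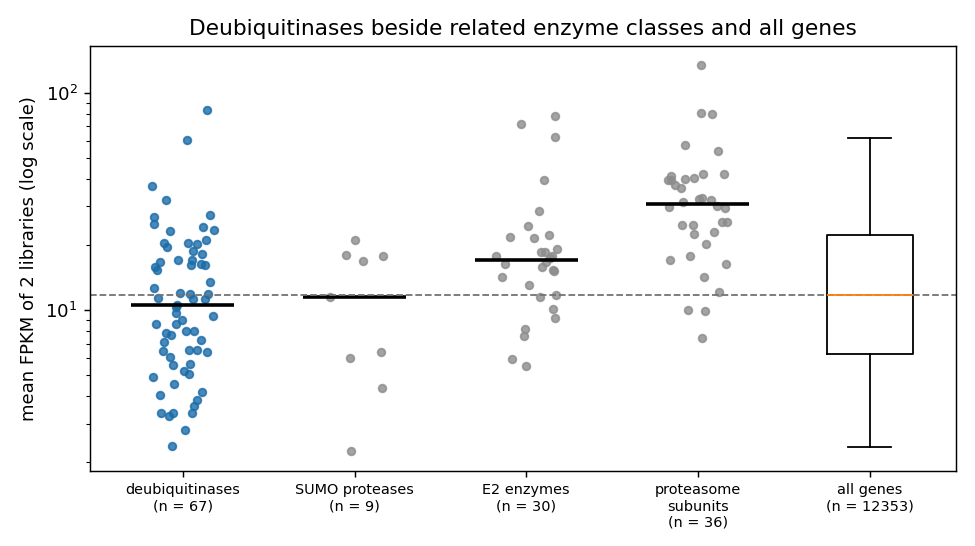
Mean FPKM over 2 libraries (log axis) of deubiquitinase genes, SUMO proteases, E2 enzymes and proteasome subunits, each point a gene and each bar the median, and of all genes as a box (quartiles and median, whiskers at percentiles 5 and 95). The dashed line is the median of all genes, 11.7. Medians run from 10.5 for deubiquitinases to 30.8 for proteasome subunits.

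The symbol rule does not match all deubiquitinases. A further 17 genes were listed, some of which encode proteins without deubiquitinase activity. Of these, 16 had a value, with a median of 19.1 FPKM and 14 above the median of all genes. This median is therefore not that of the missed deubiquitinases alone. The 9 JAMM-fold genes, all above it, had a median of 27.5 and were led by the COP9 signalosome subunit gene COPS6 (78.4 ± 1.59). PSMD7 was at 39.5 ± 0.997 and the splicing factor PRPF8 at 37.4 ± 2.52, and all 3 lack protease activity. COPS5, the catalytic JAMM subunit of the signalosome, was at 18.9 ± 0.757 and the histone H2A enzyme MYSM1 at 14.9 ± 2.28. The 4 genes of the OTU and VCPIP1 list had a median of 10.7, close to that of the members, with 2 above the median of all genes. Among them TNFAIP3, the NF-kB inhibitor A20, was lowest at 3.71 and 4.44, and YOD1 highest at 19.7 ± 2.29.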

How the data were processed

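GRO-seq was measured in 2 libraries of untreated BJ cells, with nuclei run on for 5 min at 30 °C per the labels' protocols. The authors deposited FPKM values for 12353 Ensembl identifiers, with replicates in separate columns. The submitters' processing notes name Bowtie2, HTSeq and hg19; the sources used here do not give versions, gene lengths, the read total, strand use or the treatment of reads mapping to several places. The column names carry letters and the labels numbers, so columns were tied to the group only. Depth is unknown: no ratio between columns was shared by many genes (11 of 3520 genes over FPKM 20 in the fullest bin), so no counting interval is given. Precision is the SD over 2 libraries, itself very uncertain.

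Symbols came from an Ensembl name table, which matched 12202 identifiers, and gene class, chromosome and neighbours from RefSeq on GRCh38.p14. Medians, counts above the median of all genes and log2 ratios (pseudocount 0.1 FPKM) were computed with Python 3.11.15, pandas 2.3.3 and numpy 2.4.6, and tested on simulated data. No filter on low values was applied. All members with a value are named; the 10 highest and the lowest, the ends of each family, pair members and any differing over 1.5-fold between libraries have both values, and the others mean and SD. Some listed genes that are no members are not reported here. Members, role lists, pairs and partners were chosen with earlier results of these data known, and the marker lists, comparison classes and promoter motifs after the values were seen. No test was run, since an exact sign-flip test over 2 libraries cannot give a two-sided p below 0.5. Alternatives were leaving out a library, quantile normalization, a minimum mean FPKM of 1, other pseudocounts, another background and a stricter membership.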

Additional observations from a re-analysis of the deposited data

How the results depend on the processing

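The median over the 67 deubiquitinase genes, 10.5 FPKM, ranged from 10.21 to 10.45 with either library left out, and was 10.32 without USP6NL, USP39, USP53 and USP54. Its ratio to the median of all genes, 0.899, ranged from 0.868 to 0.893 with either library left out and was 0.873 with geometric means. The number of members above the median of all genes, 30, ranged from 27 to 32. No log2 ratio of a pair changed sign under the alternatives run. A pseudocount or quantile normalization keeps the order of paired genes within a library, and the signs already matched between libraries. None of these settings could therefore have reversed a pair. With other pseudocounts or quantile normalization, 65 of 69 recomputed ratios moved by less than the SD between libraries. The largest shift was in USP4 over USP15, by 0.34 without library a. No member differed by more than 1.5-fold between libraries under any pseudocount, scaling or filter tried. The largest raw difference was 1.44-fold, so adding a pseudocount could not raise the count, and the filter removed no member. The USP family median was 9.43 without those 4 genes. No paired analysis was possible because the series has a single group. Unknown depth limits what can be said of the lowest members.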
